A study of Homo sapiens with 30 samples.

Results

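ATF4 and CHOP stress genes are the transcription factors that a cell makes or activates when its nutrients run short or its proteins misfold, together with the genes these factors switch on. The 10 genes described here are ATF4, ASNS, DDIT3 (which encodes CHOP), TRIB3, CHAC1, SESN2, DDIT4, ATF5, CEBPB and VLDLR. They were taken from a list of gene names drawn up with earlier results of these data known, and each was matched by its Ensembl identifier to 1 of the 60675 gene rows of the deposited table. All 10 passed the filter on low counts in both model fits.

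In the integrated stress response, kinases that sense amino acid shortage, misfolded protein in the endoplasmic reticulum, double-stranded RNA or haem shortage phosphorylate the translation factor eIF2. Most translation then slows, while messages with short upstream reading frames, among them those of ATF4, ATF5 and CHOP, are translated better, so much of the regulation of these factors is not visible in their RNA. ATF4 binds DNA as a dimer with C/EBP proteins at a composite site known as the C/EBP-ATF response element and turns on genes for amino acid supply, and with CHOP it turns on further stress and cell death genes.

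RNA sequencing was carried out in HT29, a human colorectal adenocarcinoma cell line, after 24 h with a 70% ethanol extract of a traditional Korean herbal formula or with DMSO vehicle. The 30 libraries made 13 groups: Soshiho-tang and Yijin-tang at 20, 100 and 500 µg/mL with 3 libraries per dose, Okbyeongpung-san at the same doses with 2 libraries each, Soyo-san with 1 library each, and vehicle with 3 libraries. Each formula is a mixture of ingredients, so an extract is not a single compound. The sample labels state 0.1% DMSO for vehicle where the study's design text states 2%, and that text also bases the doses on the IC20 for any extract with an IC20 below 500 µg/mL, so the true doses and solvent content are uncertain. A wortmannin control at 10 µM is named there and is not analysed here.

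Library totals ran over 18.5 M to 36.2 M counts. Of 13 markers of colon epithelium, 12 had a median of at least 1 CPM (counts per 1000000 of the library total), with keratin KRT8 at 6010 CPM, and CDX1 was at 0.72 CPM. The colon markers GPA33, CDH17 and CDX2 had low medians of 2.77, 2.91 and 3.89 CPM. Among 7 markers of other cell types 2 had a median of at least 1 CPM, PECAM1 at 1.33 and COL1A1 at 1.23 CPM. The highest value of these 7 in any library was 2.49 CPM. Mitochondrial genes took 7.91% to 9.46% of counts with Soshiho-tang at 500 µg/mL and 9.95% to 12.1% in vehicle, and their part in the results was not tested. Vehicle libraries carry names of another numbering than the extract libraries, so a difference from vehicle and a difference between those sets cannot be told apart, whereas the doses of 1 formula share their numbering. All comparisons with vehicle use the same 3 libraries, which differed more from each other than the replicates of any other group: chi-square per degree of freedom was 10.3 to 18.6 for the vehicle pairs and at most 9.55 for pairs of extract libraries, at totals of 25.4 M to 36.2 M counts in vehicle. By their titles the Soyo-san libraries and the third Okbyeongpung-san replicate belong to batch D and the remaining ones to batch E, and what a batch is goes unsaid.

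The promoters of 2 of the 10 genes hold the 8-letter core of the C/EBP-ATF response element. The core was written as TGATGNAA, with N for any base, and searched on both strands in the 250 bases before the transcript start of each RefSeq promoter (GRCh38.p14). It was present for ASNS and CHAC1, against 3.89% of the 27305 genes with a promoter in the table. A gene can have more than 1 window, and counted by window the core was in 2 of 18 for the 10 genes, against 3.14% of all 35116. The 2 windows are shown because these genes had the largest changes described below, with the match in capitals. ASNS is read on the minus strand at chr7:97872409-97872658 and CHAC1 on the plus strand at chr15:40953221-40953470.
ASNS: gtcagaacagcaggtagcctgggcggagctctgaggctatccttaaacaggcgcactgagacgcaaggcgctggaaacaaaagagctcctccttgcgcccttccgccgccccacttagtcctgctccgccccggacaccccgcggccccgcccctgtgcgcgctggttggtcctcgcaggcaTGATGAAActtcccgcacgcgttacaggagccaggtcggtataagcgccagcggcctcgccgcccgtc
CHAC1: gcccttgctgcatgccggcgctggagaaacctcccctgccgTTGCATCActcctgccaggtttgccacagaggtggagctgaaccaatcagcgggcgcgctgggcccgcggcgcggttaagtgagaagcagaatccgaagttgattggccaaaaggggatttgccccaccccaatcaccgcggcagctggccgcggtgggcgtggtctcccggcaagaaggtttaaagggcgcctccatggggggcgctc
The ASNS match, TGATGAAA, lies 68 to 61 bases before the transcript start in the direction of the gene. The CHAC1 match lies 209 to 202 bases before it and reads TTGCATCA in the direction of the gene, so the core is on the opposite strand. A search for TTGCATCA itself on both strands, whose matches are all matches of the core as well, found only CHAC1 among the 10 genes, against 0.967% of all genes. The cyclic AMP response element TGACGTCA was in no window of the 10 genes and in 2.03% of all genes, and the consensus endoplasmic reticulum stress element was in none of the 10 and in 0.0916% of all genes. Only exact matches were counted. The DDIT3 windows hold a stretch that differs from the searched endoplasmic reticulum stress element only in its last base. A missing match therefore does not show that a promoter lacks an element. A match is a stretch of letters and not a measured binding site.

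The 10 genes differed widely in how much RNA they gave per kilobase of exon. In vehicle, the mean was 108 CPM per kb for ATF4, 32.4 for ATF5 and 28.2 for CEBPB. ASNS had 11.6 CPM per kb and TRIB3 10.8, while DDIT4 had 5.52, DDIT3 4.17, SESN2 3.16, CHAC1 1.73 and VLDLR 0.311. The transcription factors other than DDIT3 were thus the most abundant. CHAC1, VLDLR and DDIT3 rested on few reads, 48 to 145, 55 to 108 and 80 to 178 per library.

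Soshiho-tang at 500 µg/mL was the one treatment with which more than 1 of these genes passed as higher than vehicle. Against vehicle, 6 of the 10 rose and 1 fell at an adjusted p below 0.05, where 39.2% of all 15895 genes tested were called (19.3% higher and 19.9% lower). The risers were ASNS, CHAC1, DDIT4, VLDLR, TRIB3 and CEBPB, and ATF5 fell. The median log2 fold change of the 10 genes was 0.40, against -0.03 over all genes. Against the same formula at 20 µg/mL, 7 of the 10 rose and none fell, where 26.6% of all genes were called (13% higher and 13.6% lower), and the medians were 0.38 for the 10 genes and -0.01 for all genes. All adjusted p-values given here are from edgeR's quasi-likelihood test with Benjamini-Hochberg adjustment over all genes of the comparison. Replicates are not stated to be separate cultures, so the p-values speak to the spread between libraries, which may be technical. In bulk RNA, fewer cells of a kind and less RNA per cell cannot be told apart.

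**Figure D1:**
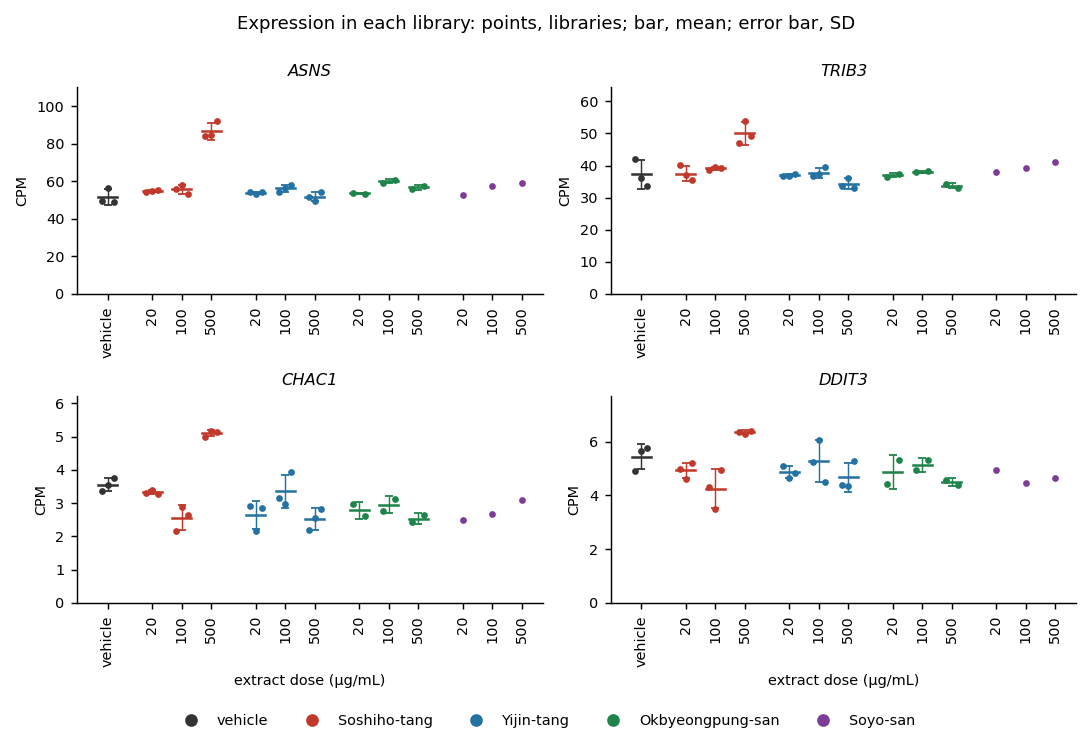
CPM of ASNS, TRIB3, CHAC1 and DDIT3 (vertical axes, from 0) in every library, by formula and dose in µg/mL with vehicle at the low end; points are libraries, bars are means and error bars are SDs where a group has more than 1 library. In all 4 panels the 3 libraries of Soshiho-tang at 500 µg/mL lie above the other 27.

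ASNS (ENSG00000070669, chromosome 7, 97852118 to 97872542, minus strand of GRCh38) encodes asparagine synthetase and is a classical target of ATF4 during amino acid shortage. It had 83.9, 84.5 and 92.0 CPM with Soshiho-tang at 500 µg/mL, against 49.4, 56.5 and 49.0 CPM in vehicle. At 20 µg/mL of that formula it had 54.5, 54.8 and 55.4 CPM and at 100 µg/mL 55.7, 58.2 and 53.1 CPM. Thus the rise stood at the top dose, and its 3 libraries overlapped no other, of which the highest was an Okbyeongpung-san library at 100 µg/mL with 60.8 CPM. The log2 fold change was 0.74 ± 0.050 (SE) against vehicle (adjusted p = 4.4e-12) and 0.70 ± 0.050 against 20 µg/mL (adjusted p = 2e-11). Vehicle had the lowest of the 13 group means, 51.7 ± 4.22 CPM (SD, n = 3).

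CHAC1 (ENSG00000128965, chromosome 15, 40952962 to 40956519, plus strand) encodes an enzyme that breaks down glutathione and lies downstream of ATF4. It had 5.00, 5.18 and 5.13 CPM with Soshiho-tang at 500 µg/mL, against 3.37, 3.54 and 3.76 CPM in vehicle. At 20 µg/mL it had 3.30, 3.39 and 3.28 CPM and at 100 µg/mL 2.17, 2.89 and 2.64 CPM. The level was thus lowest at the middle dose and highest at the top dose, with no overlap between 500 µg/mL and any other group. CHAC1 rose by 0.52 ± 0.13 on the log2 scale against vehicle (adjusted p = 0.0019) and 0.66 ± 0.13 against 20 µg/mL (adjusted p = 0.00043). Of the 13 group means, which spanned 2.04-fold, the largest range among the 10 genes, vehicle came second at 3.56 ± 0.194 CPM (SD, n = 3). Vehicle did not separate from the groups below it in that order, Yijin-tang at 100 µg/mL and Soshiho-tang at 20 µg/mL.

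TRIB3 (ENSG00000101255, chromosome 20, 362835 to 397559, plus strand) encodes a pseudokinase that is induced by ATF4 and CHOP and restrains them in turn. Its values were 47.0, 53.8 and 49.2 CPM with Soshiho-tang at 500 µg/mL, against 42.1, 36.1 and 33.5 CPM in vehicle. The lower doses gave 40.1, 36.9 and 35.4 CPM at 20 µg/mL and 38.7, 39.5 and 39.1 CPM at 100 µg/mL. Again only the top dose stood clear, and the highest of the other 27 libraries was vehicle replicate 1. TRIB3 rose by 0.42 ± 0.062 on the log2 scale against vehicle (adjusted p = 4.4e-06) and 0.46 ± 0.063 against 20 µg/mL (adjusted p = 2.5e-06).

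DDIT3 (ENSG00000175197, chromosome 12, 57516588 to 57521737, minus strand) encodes CHOP, the factor associated with cell death under prolonged endoplasmic reticulum stress. It had 6.37, 6.29 and 6.41 CPM with Soshiho-tang at 500 µg/mL, against 4.92, 5.67 and 5.75 CPM in vehicle. At 20 µg/mL it had 4.97, 4.62 and 5.20 CPM and at 100 µg/mL 4.30, 3.50 and 4.94 CPM. Its 3 top-dose libraries also lay above the other 27, narrowly so, since a Yijin-tang library at 100 µg/mL had 6.08 CPM. DDIT3 rose against 20 µg/mL by a log2 fold change of 0.40 ± 0.12 (adjusted p = 0.014), a call that was lost without replicate 2 at 20 µg/mL (0.36, adjusted p = 0.06). Against vehicle it was 0.22 ± 0.12 and did not pass (adjusted p = 0.14). DDIT3 overlaps MARS1, a tRNA synthetase gene on the opposite strand with a median of 171 CPM. The strand setting of the counting is not given in the sources used here, and without strand the reads of the pair cannot be told apart. MARS1 itself changed by 0.23 ± 0.033 against 20 µg/mL (adjusted p = 4.2e-06).

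These 4 genes are the ones of the 10 whose Soshiho-tang libraries at 500 µg/mL exceeded all other libraries. The same was true of 4.45% of all genes tested, and 6.59% lay below all others. No gene of the 10 lay below.

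**Figure D2:**
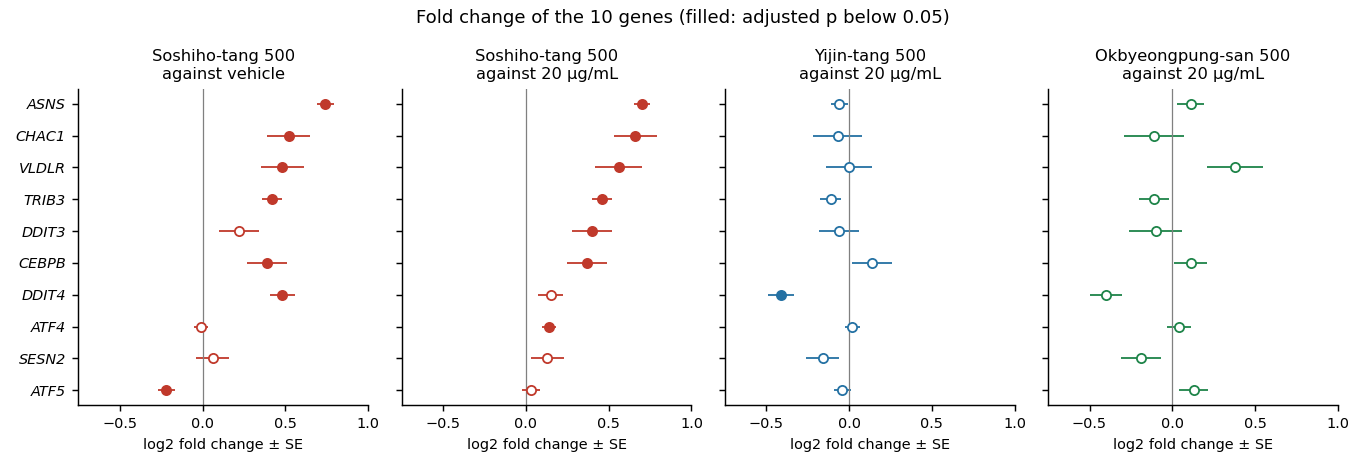
Log2 fold change with its SE (horizontal axis) of each of the 10 genes in 4 comparisons; filled points passed an adjusted p below 0.05 and open points did not. ASNS at 0.74 and 0.70 lies farthest to the right in both Soshiho-tang panels, while the DDIT4 points for Yijin-tang at -0.41 and Okbyeongpung-san at -0.40 lie to the left.

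The message of ATF4 itself (ENSG00000128272, chromosome 22, 39519695 to 39522685, plus strand) was not called against vehicle with Soshiho-tang at 500 µg/mL. It had 280, 265 and 271 CPM at 500 µg/mL, against 258, 276 and 283 CPM in vehicle, with overlapping ranges and a log2 fold change of -0.01 ± 0.043 (adjusted p = 0.88). At the lower doses it was less abundant, with 261, 253 and 246 CPM at 20 µg/mL and a mean of 246 ± 1.81 CPM (SD, n = 3) at 100 µg/mL. The 3 libraries at 500 µg/mL therefore lay above those at 20 µg/mL. That difference was small, 0.14 ± 0.044 (adjusted p = 0.017), and the call was lost without replicate 1 at 500 µg/mL (0.11, adjusted p = 0.11) and without replicate 3 at 20 µg/mL (0.12, adjusted p = 0.085). Its 13 group means spanned the narrowest range of the 10 genes, with Soyo-san at 100 µg/mL lowest at 237 CPM.

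ATF5 (ENSG00000169136, chromosome 19, 49928702 to 49933935, plus strand), which encodes a relative of ATF4 also involved in mitochondrial stress, was the one gene of the 10 that fell against vehicle with Soshiho-tang at 500 µg/mL. It had 82.5, 84.5 and 82.1 CPM there, against 102, 88.7 and 97.0 CPM in vehicle. The 2 ranges did not overlap, and the log2 fold change was -0.22 ± 0.052 (adjusted p = 0.0015). The level hardly differed between doses, with 0.03 ± 0.053 for 500 against 20 µg/mL (adjusted p = 0.78), and the means of the other 12 groups lay between 77.6 and 84.7 CPM. ATF5 overlaps NUP62, a nuclear pore gene on the opposite strand with a median of 191 CPM, which makes its level uncertain.

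CEBPB (ENSG00000172216, chromosome 20, 50190734 to 50192689, plus strand) encodes C/EBP beta, a dimer partner of ATF4. It had 65.6, 74.2 and 77.6 CPM with Soshiho-tang at 500 µg/mL, against 55.6, 58.7 and 51.1 CPM in vehicle, without overlap. At 20 µg/mL the values were 57.1, 50.3 and 65.5 CPM, so the 2 doses barely separated. CEBPB rose by 0.39 ± 0.12 on the log2 scale against vehicle (adjusted p = 0.015) and 0.37 ± 0.12 against 20 µg/mL (adjusted p = 0.031). Without vehicle replicate 3 or replicate 3 at 500 µg/mL the first call was lost (0.36 and 0.34, adjusted p = 0.051 and 0.062). The second was lost without replicate 1 or 2 at 20 µg/mL or replicate 2 or 3 at 500 µg/mL (0.29 to 0.37, adjusted p = 0.075 to 0.13), and with no filter on low counts (0.37, adjusted p = 0.07). The highest CEBPB value of all 30 libraries, 78.1 CPM, was that of Soyo-san at 20 µg/mL.

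VLDLR (ENSG00000147852, chromosome 9, 2621834 to 2660053, plus strand), the very low density lipoprotein receptor and a described target of ATF4, was the least abundant per kilobase. It had 3.54, 3.86 and 4.84 CPM with Soshiho-tang at 500 µg/mL, against 2.88, 2.79 and 3.03 CPM in vehicle, and 2.48, 3.19 and 2.76 CPM at 20 µg/mL. The top-dose libraries lay above both groups, but replicate 3 stood well above the other 2. The log2 fold change was 0.48 ± 0.13 against vehicle (adjusted p = 0.0051) and 0.56 ± 0.14 against 20 µg/mL (adjusted p = 0.0027). Without replicate 3 at 500 µg/mL it was 0.35 against vehicle and did not pass (adjusted p = 0.057). Okbyeongpung-san at 500 µg/mL came next in the order of means, with 3.56 ± 0.326 CPM (SD, n = 2), and overlapped it.

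DDIT4 (ENSG00000168209, chromosome 10, 72273920 to 72276036, plus strand) and SESN2 (ENSG00000130766, chromosome 1, 28259527 to 28282491, plus strand) encode REDD1 and sestrin 2, which restrain the growth kinase complex mTORC1 under stress. DDIT4 had 15.2, 15.9 and 16.7 CPM with Soshiho-tang at 500 µg/mL, against 11.4, 11.1 and 11.6 CPM in vehicle. The lower doses were already at this level, with 14.1, 14.8 and 15.2 CPM at 20 µg/mL and 16.1, 16.3 and 15.3 CPM at 100 µg/mL. All 9 libraries of the formula lay above vehicle, and the log2 fold changes were 0.33 ± 0.076, 0.44 ± 0.075 and 0.48 ± 0.075 at 20, 100 and 500 µg/mL (adjusted p = 0.0031, 0.00016 and 1e-05). Between 500 and 20 µg/mL the difference was 0.15 ± 0.075 and did not pass (adjusted p = 0.15).

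With Yijin-tang, DDIT4 was raised at the 2 lower doses and stood at the vehicle level at the top dose. It had 11.3, 10.9 and 11.6 CPM at 500 µg/mL, against 16.0, 13.6 and 15.4 CPM at 20 µg/mL, with no overlap. The values at 100 µg/mL, 13.6, 14.5 and 16.9 CPM, lay with those at 20 µg/mL. The log2 fold change for 500 against 20 µg/mL was -0.41 ± 0.077 (adjusted p = 0.0025), the only call among the 10 genes in that comparison, where 1.92% of all genes were called (1.24% lower and 0.679% higher). Against vehicle it was 0.36 ± 0.075 at 20 µg/mL, 0.35 ± 0.075 at 100 µg/mL and -0.05 ± 0.078 at 500 µg/mL (adjusted p = 0.0012, 0.0017 and 0.73).

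Okbyeongpung-san gave DDIT4 values of 10.9 and 11.5 CPM at 500 µg/mL, against 14.7 and 15.3 CPM at 20 µg/mL, and 14.4 and 14.5 CPM at 100 µg/mL. The ranges at 500 and 20 µg/mL did not overlap here either. The log2 fold change for 500 against 20 µg/mL, -0.40 ± 0.097, did not pass with 2 libraries per dose (adjusted p = 0.12), and it did pass when only these 2 groups were fitted (-0.41, adjusted p = 0.0065). The single Soyo-san libraries had 14.6, 14.2 and 12.1 CPM at 20, 100 and 500 µg/mL.

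Groupings chosen after these values were seen single out DDIT4. Its 6 libraries at 500 µg/mL of Yijin-tang, Okbyeongpung-san and Soyo-san, at 10.9 to 12.1 CPM, lay below the 12 libraries of the same formulas at 20 and 100 µg/mL, at 13.6 to 16.9 CPM, as did 1.08% of all genes, while 0.692% lay above. Its 18 extract libraries at 20 and 100 µg/mL lay above the 3 vehicle libraries, as did 4.11% of all genes, while 2.22% lay below. No gene of the 10 separated all 27 extract libraries from vehicle, which 2.74% of all genes did upward and 1.48% downward.

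SESN2 passed in none of the 14 comparisons. It had 10.9, 11.7 and 11.7 CPM with Soshiho-tang at 500 µg/mL, against 11.8, 10.7 and 10.2 CPM in vehicle, with overlapping ranges and a log2 fold change of 0.06 ± 0.098 (adjusted p = 0.68). Its group means ran from 9.08 to 11.4 CPM, and Okbyeongpung-san at 500 µg/mL, with 9.56 and 8.61 CPM, was lowest. That group's log2 fold change against vehicle was -0.29 ± 0.10 (adjusted p = 0.13).

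**Figure D3:**
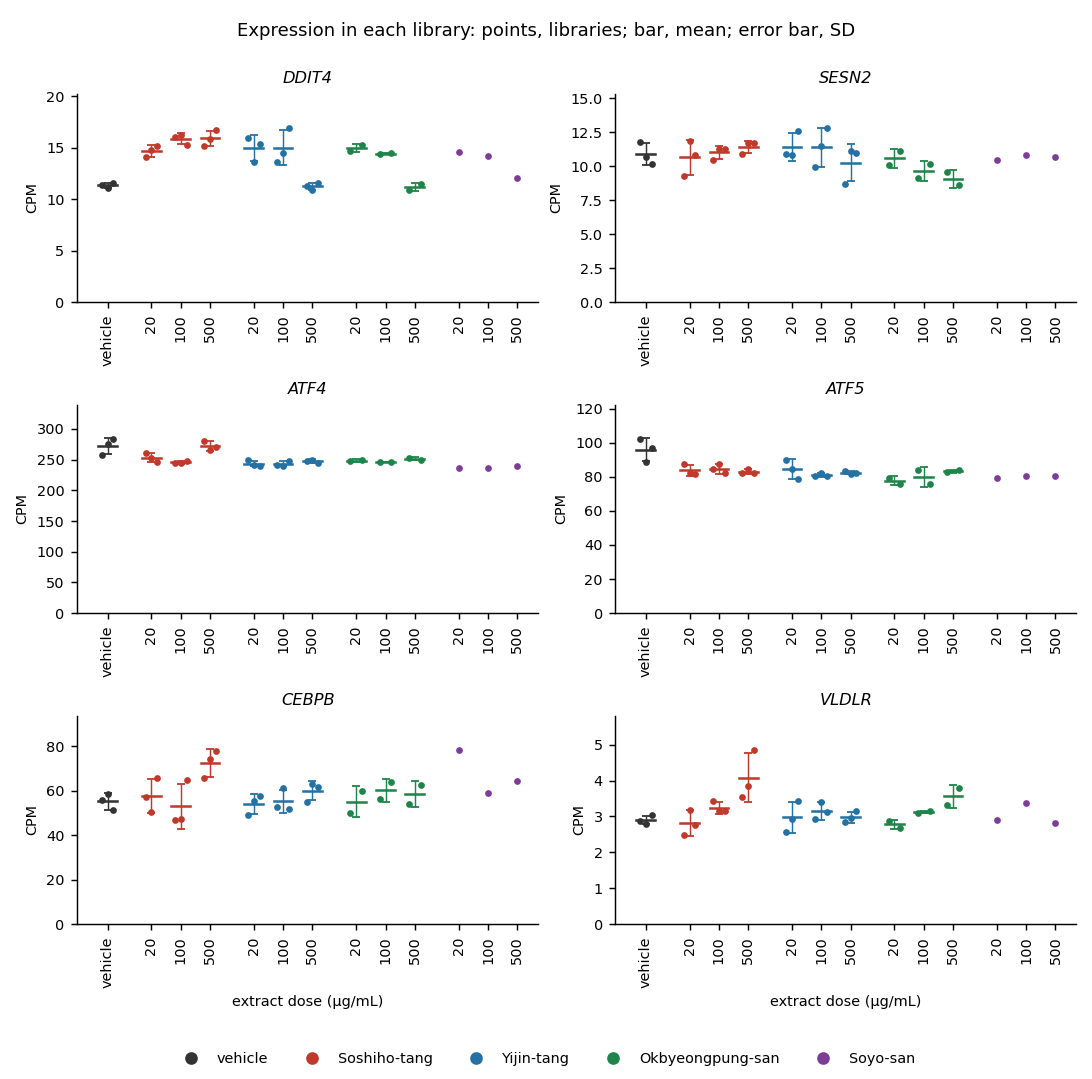
CPM of DDIT4, SESN2, ATF4, ATF5, CEBPB and VLDLR (vertical axes, from 0) in every library, by formula and dose in µg/mL with vehicle at the low end; points are libraries, bars are means and error bars are SDs where a group has more than 1 library. DDIT4 lies between 13.6 and 16.9 CPM in all extract libraries at 20 and 100 µg/mL and between 10.9 and 12.1 CPM at 500 µg/mL of every formula but Soshiho-tang, while SESN2 stays between 8.61 and 12.8 CPM in all 30 libraries.

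At the lower doses of Soshiho-tang and at all doses of Yijin-tang, the genes that passed against vehicle were mostly lower. With Soshiho-tang at 100 µg/mL, DDIT4 rose and ATF4, ATF5, CHAC1 and DDIT3 fell (18.3% of all genes called, 9.8% higher and 8.52% lower), and at 20 µg/mL DDIT4 rose and ATF4 and ATF5 fell (16.8%, 9.36% higher and 7.48% lower). With Yijin-tang, DDIT4 rose and ATF4, ATF5 and CHAC1 fell at 20 µg/mL (16.8%, 9.17% higher and 7.68% lower). There DDIT4 rose and ATF4 and ATF5 fell at 100 µg/mL (18.4%, 9.71% higher and 8.68% lower), and ATF4, ATF5 and CHAC1 fell at 500 µg/mL (21.4%, 10.3% lower). The medians of the 10 genes in these 5 comparisons were between -0.15 and -0.05, and those of all genes between -0.02 and 0.

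The sizes of these falls were modest for the abundant factors and larger for CHAC1. ATF4 fell by 0.15 to 0.22 and ATF5 fell by 0.22 to 0.30 on the log2 scale. CHAC1 fell by 0.50 ± 0.14 with Soshiho-tang at 100 µg/mL, and with Yijin-tang by 0.47 ± 0.14 at 20 µg/mL and by 0.54 ± 0.14 at 500 µg/mL (adjusted p = 0.012, 0.019 and 0.0068). Its Yijin-tang values were 2.18, 2.56 and 2.83 CPM at 500 µg/mL and 2.91, 2.15 and 2.86 CPM at 20 µg/mL, all below vehicle. DDIT3 fell by 0.38 ± 0.12 with Soshiho-tang at 100 µg/mL (adjusted p = 0.029).

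Many of these calls rested on single libraries or on the spread pooled over groups. Without vehicle replicate 3 or replicate 1 at 100 µg/mL, DDIT3 and CHAC1 no longer passed with Soshiho-tang at 100 µg/mL, which left 3 of the 5 calls, and DDIT3 was also lost without vehicle replicate 2 or replicate 2 at 100 µg/mL and by DESeq2 (adjusted p = 0.06), so that it held in 5 of 11 alternatives. ATF4 at 20 µg/mL of Soshiho-tang was lost without vehicle replicate 3 or its own replicate 3. In Yijin-tang, ATF4 at 500 µg/mL was lost without vehicle replicate 3 and CHAC1 without replicate 1 at 500 µg/mL. At 20 µg/mL CHAC1 was lost without vehicle replicate 3 or replicate 2, and ATF5 without replicate 3. TRIB3, at -0.16 ± 0.063 with Yijin-tang at 500 µg/mL (adjusted p = 0.066), passed without vehicle replicate 2 or 3 or without replicate 2 at 500 µg/mL (-0.20 to -0.21, adjusted p = 0.031 to 0.037).

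None of the 10 genes passed with Okbyeongpung-san against vehicle or between its doses by edgeR's quasi-likelihood test. The share of all genes called was 4.38% at 500 µg/mL (2.19% in each direction), 0.108% at 100 µg/mL and 0.273% at 20 µg/mL. For 500 against 20 µg/mL it was 0.558%, with 0.247% higher and 0.311% lower. At an unadjusted p below 0.05 there were 5, 4, 4 and 2 of the 10 genes in these comparisons. The share of all genes at that unadjusted threshold was not computed, so these counts cannot be set against the shares above. DESeq2 called 0, 1, 1 and 0 of the 10 genes in the same comparisons, the single gene being ATF5. Against vehicle it gave no adjusted p for CHAC1 and VLDLR at any dose. The same held for DDIT3 and SESN2 at 100 and 20 µg/mL and for DDIT4 at 100 µg/mL, so DESeq2 could not call these. The share of all genes called by DESeq2 is not reported here. The ATF5 log2 fold change against vehicle was -0.36 ± 0.079 at 20 µg/mL, -0.30 ± 0.079 at 100 µg/mL and -0.24 ± 0.079 at 500 µg/mL (adjusted p = 0.066, 0.15 and 0.10). CHAC1 had 2.42 and 2.65 CPM at 500 µg/mL, below the vehicle values, with a log2 fold change of -0.53 ± 0.16 (adjusted p = 0.075). ASNS had 55.8 and 57.7 CPM at 500 µg/mL and a log2 fold change of 0.11 ± 0.072 (adjusted p = 0.42). Without vehicle replicate 1 or 2, 1 to 3 of the 10 genes passed, drawn from ATF4, ATF5 and DDIT4, and the counts over all genes also moved by over 1.5 times with each library left out.

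Soyo-san had 1 library per dose and allowed no test. At 500 µg/mL its ASNS, TRIB3 and CHAC1 values were 59.3, 41.2 and 3.09 CPM, nearer to the vehicle mean than to Soshiho-tang at that dose. ATF4, at 237, 237 and 239 CPM at 20, 100 and 500 µg/mL, and ATF5, at 79.5, 80.2 and 80.4 CPM, lay below all 3 vehicle libraries. So did CHAC1 at each dose, at 2.5, 2.68 and 3.09 CPM, while DDIT4 and CEBPB lay above all 3 at each dose. The share of all genes outside the vehicle range was not computed.

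Soshiho-tang and Yijin-tang were compared directly at 500 µg/mL, where 7 of the 10 genes were higher with Soshiho-tang and none lower, beside 13.1% of all genes called (6.69% higher and 6.37% lower). CHAC1 differed most, with 5.00 to 5.18 CPM in Soshiho-tang and 2.18 to 2.83 CPM in Yijin-tang and a log2 difference of 1.05 ± 0.14 (adjusted p = 2.6e-06). ASNS, with 51.8, 49.3 and 54.2 CPM in Yijin-tang, was higher with Soshiho-tang by 0.77 ± 0.050 (adjusted p = 8.4e-12), TRIB3 by 0.58 ± 0.063 (adjusted p = 1.2e-07) and DDIT4 by 0.52 ± 0.077 (adjusted p = 1.5e-05). VLDLR, DDIT3 and ATF4 were higher by 0.48 ± 0.14, 0.47 ± 0.12 and 0.17 ± 0.044 (adjusted p = 0.017, 0.0084 and 0.0087). Those last 3 calls each fell away without 1 library: VLDLR and DDIT3 without Yijin-tang replicate 1 (0.44 and 0.42), VLDLR without Soshiho-tang replicate 3 (0.35), and ATF4 without Soshiho-tang replicate 1 (0.14). VLDLR also missed the threshold by DESeq2 (adjusted p = 0.055). CEBPB, SESN2 and ATF5 differed by 0.31 ± 0.12, 0.20 ± 0.10 and 0.04 ± 0.053 and did not pass.

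Whether the change from 20 to 500 µg/mL differed between the 2 formulas was tested as an interaction. The difference, Soshiho-tang minus Yijin-tang, passed for 4 of the 10 genes, all positive, beside 4.69% of all genes called (2.27% higher and 2.42% lower). It was 0.75 ± 0.072 for ASNS (adjusted p = 6.5e-08), 0.57 ± 0.090 for TRIB3 (adjusted p = 0.00014), 0.56 ± 0.11 for DDIT4 (adjusted p = 0.0013) and 0.72 ± 0.20 for CHAC1 (adjusted p = 0.034). The ASNS and TRIB3 differences came with a rise in Soshiho-tang and log2 fold changes of -0.06 ± 0.052 and -0.11 ± 0.064 in Yijin-tang, whereas that of DDIT4 came with a fall in Yijin-tang. The CHAC1 call held in 6 of 17 alternative analyses, and leaving out any 1 of 10 of the 12 libraries removed it (0.61 to 0.74, adjusted p = 0.053 to 0.13). Those 10 were every Soshiho-tang library at either dose, replicates 1 and 2 of Yijin-tang at 500 µg/mL, and replicates 1 and 3 of Yijin-tang at 20 µg/mL. Okbyeongpung-san was in another fit and its difference from Soshiho-tang was not tested.

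Other genes of the pathway were counted in 9 lists, 121 of whose 127 genes were measured in this comparison. The amino acid transporters listed under ATF4 had a median log2 fold change of 0.39 with Soshiho-tang at 500 µg/mL against vehicle, beside -0.03 over all genes, and 8 of 10 rose and 1 fell, where 19.3% of all genes were higher and 19.9% lower. SLC7A11, the cystine importer, averaged 405 ± 8.62 CPM with Soshiho-tang at 500 µg/mL and 110 ± 20.6 CPM in vehicle (SD, n = 3 each), which is 1.88 ± 0.092 on the log2 scale (adjusted p = 1.1e-10). Its partner chain SLC3A2 changed by 0.62 ± 0.049 and SLC38A2, a neutral amino acid carrier, by 0.70 ± 0.049 (adjusted p = 1.1e-10 and 7.6e-12). Part of this lay between vehicle and the lowest dose for SLC7A11, at 174 CPM with Soshiho-tang at 20 µg/mL. SLC38A2 averaged 143 CPM in vehicle, 186 CPM at 20 µg/mL and 234 CPM at 500 µg/mL. SLC3A2 averaged 154 CPM both in vehicle and at 20 µg/mL. Against 20 µg/mL, 8 of the 10 transporters rose and 1 fell, beside 13% of all genes higher and 13.6% lower. ASNS did not pass with the other formulas, whereas SLC7A11 also rose with Yijin-tang (0.90 ± 0.091) and Okbyeongpung-san (1.29 ± 0.13) at 500 µg/mL (adjusted p = 6.3e-06 and 0.0013).

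Among enzymes of amino acid synthesis and one-carbon metabolism, 4 of 12 rose and 1 fell, with a median of 0.08. Over all genes 19.3% were higher and 19.9% lower. PSAT1 of serine synthesis rose by 0.52 ± 0.042 and mitochondrial MTHFD2 by 0.39 ± 0.043 (adjusted p = 2.1e-10 and 4.2e-08), and PYCR1 of proline synthesis fell by 0.15 (adjusted p = 0.017). Of the tRNA synthetases commonly listed under ATF4, counted with the tRNA exporter XPOT, 11 of 13 rose and none fell, by small amounts such as 0.34 ± 0.038 for XPOT and 0.33 ± 0.042 for WARS1 (adjusted p = 6.2e-08 and 5.7e-07). Of 8 cytosolic synthetases not usually listed there, 5 rose and 1 fell, with 19.3% of all genes higher and 19.9% lower. The medians of these lists of synthetases were 0.19 and 0.14.

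Of 16 genes for the eIF2 kinases, eIF2 and its phosphatase, 6 rose and 1 fell, with a median of 0.08. Over all genes 19.3% were higher and 19.9% lower. PPP1R15B, which directs the phosphatase to eIF2, rose by 0.37 ± 0.041 (adjusted p = 4.9e-08). PPP1R15A, its stress-inducible counterpart, averaged 58.8 ± 4.23 CPM with Soshiho-tang at 500 µg/mL, 41.2 ± 2.41 CPM at 20 µg/mL and 50.5 ± 1.80 CPM in vehicle (SD, n = 3 each). It fell at 20 µg/mL against vehicle by 0.34 (adjusted p = 0.00018), so its rise of 0.55 ± 0.058 for 500 against 20 µg/mL (adjusted p = 2.6e-08) starts from below vehicle. With Yijin-tang at 500 µg/mL it fell against vehicle by 0.42 (adjusted p = 1e-05). Among 20 related transcription factors 8 rose and 3 fell with a median of 0.06, beside 19.3% of all genes higher and 19.9% lower. CEBPG, another partner of ATF4, was at 0.36 ± 0.043 and CREB3L1, a membrane-bound factor, at -1.25 ± 0.079 (adjusted p = 1.8e-07 and 5.3e-10).

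Of 15 further stress targets 10 rose and 1 fell with a median of 0.22, beside 19.3% of all genes higher and 19.9% lower, among them the autophagy receptor SQSTM1 (0.44 ± 0.034) and the stress cytokine GDF15 (0.39 ± 0.060; adjusted p = 7.7e-11 and 8.1e-06). Among 7 measured relatives of the 10 genes, 5 rose and 1 fell with a median of 0.20, beside the same shares of all genes: LRP8, a receptor related to VLDLR, changed by 0.63 ± 0.038, TRIB2 by 0.94 ± 0.10, and SESN1 by -0.82 ± 0.066 (adjusted p = 3.7e-13, 4.9e-08 and 1.7e-10). SESN1 thus moved while SESN2 did not pass. In the ATF6 and XBP1 arm, the chaperone side of the unfolded protein response, 11 of 20 rose and none fell against vehicle, with a median of 0.16, beside 19.3% of all genes higher. Against 20 µg/mL of Soshiho-tang 18 of 20 rose, beside 13% of all genes higher, but that dose itself lay below vehicle in this list, with 7 of 20 lower, 2 higher and a median of -0.11. The chaperone HSPA5 averaged 596 ± 19.6 CPM with Soshiho-tang at 500 µg/mL, 418 ± 14.3 CPM at 20 µg/mL and 467 ± 28.7 CPM in vehicle (SD, n = 3 each). It rose at 500 µg/mL by 0.34 ± 0.042 against vehicle (adjusted p = 3e-07) and by 0.55 ± 0.043 against 20 µg/mL (adjusted p = 8.5e-11), and it fell at 20 µg/mL against vehicle by 0.21 (adjusted p = 0.0013).

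With Yijin-tang, 500 against 20 µg/mL gave 2 of 10 transporters and 2 of 20 genes of the ATF6 and XBP1 arm higher. Among 20 related factors 1, CREB3L1, was lower, and among 7 relatives of the 10 genes 1 was higher and 1 lower. The remaining lists held no call. Over all genes, 0.679% were higher and 1.24% lower in this comparison. HSPA5 rose by 0.27 ± 0.043 (adjusted p = 0.00047) and SLC7A11 by 0.38 ± 0.090 (adjusted p = 0.037).

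**Figure D4:**
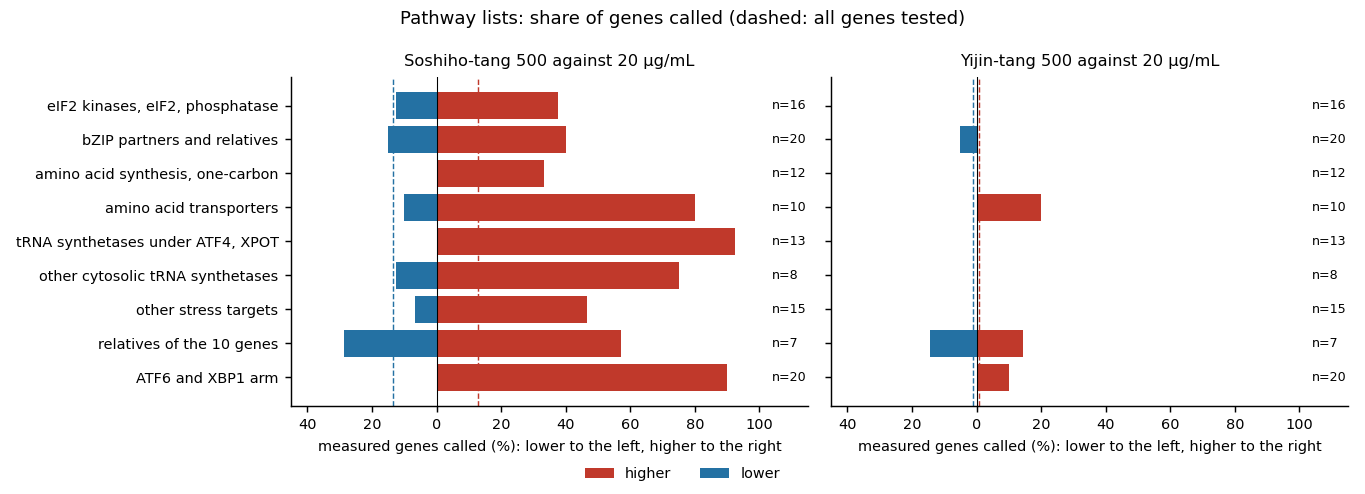
Share of the measured genes of each pathway list (n at the right) called higher (red, to the right) or lower (blue, to the left) for 500 against 20 µg/mL of Soshiho-tang and of Yijin-tang; dashed lines mark the share of all genes called, 13% higher and 13.6% lower with Soshiho-tang and 0.679% higher and 1.24% lower with Yijin-tang. In the Soshiho-tang panel the bars reach farthest for the tRNA synthetases under ATF4, 12 of 13, and the ATF6 and XBP1 arm, 18 of 20.

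Likeness of pattern was described by Pearson's r of group mean log2 CPM over the 13 groups, among 10543 genes with a mean of at least 5 CPM, and with CHAC1 and VLDLR, below that level, compared as well. TRIB3 was most like ASNS, with r = 0.87, and DDIT3 was second nearest to CHAC1 (r = 0.87). The genes nearest to ASNS were LAMA3, SSR3 and SHMT2 (0.92, 0.91 and 0.91), and those nearest to CHAC1 were MIR4697HG and, after DDIT3, ATOSB. DDIT3 was nearest to AKIRIN2, CHAC1 and HERPUD1 (0.88, 0.87 and 0.84). DDIT4 was nearest to CYP51A1, ERLEC1 and SC5D (0.90, 0.87 and 0.86). ATF4 was nearest to SH3BGRL3 (0.93), ATF5 to ERF (0.95), CEBPB to PRR7 (0.87) and VLDLR to ELOVL1 (0.85). The points share the library sets and Soshiho-tang at 500 µg/mL weighs heavily: without that group none of the 3 nearest genes of ASNS, TRIB3 or CHAC1 was the same, and TRIB3 was nearest to C4orf19 (0.82).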

How the data were processed

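The deposited table held expected counts per gene, estimated by RSEM and not normalised between libraries, with 9.52% to 11.5% non-whole values per library. The tools named were STAR 2.7.3a, RSEM 1.3.3, Trim Galore 0.6.5 and FastQC 0.11.9, with build GRCh38, per the submitters' processing notes. The annotation release and the strand setting of the counting are not given in the sources used here, while the kit was directional per the labels' protocols. Expected counts divide reads between genes that share sequence, so pseudogenes and overlapping genes are less certain; the 4 processed pseudogenes of ATF4 had medians of at most 0.0759 CPM. A further 30 columns without a name held no values and were not used. Coordinates came from GENCODE release 29 for 57055 identifiers. Symbols came from a separate reference list of gene names, with the release 29 name where that list had none.

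Expected counts were rounded and tested in R 4.3.3 with edgeR 4.0.16 (filterByExpr, TMM, robust quasi-likelihood F-test). Vehicle was fitted once with Soshiho-tang and Yijin-tang (21 libraries, 15895 genes, biological coefficient of variation 4.7%) and once with Okbyeongpung-san (9 libraries, 15764 genes, 7.03%). TMM factors lay between 0.94 and 1.03. Benjamini-Hochberg adjustment ran over all genes in each of 14 comparisons, and calls were made at an adjusted p below 0.05. The SE was taken from the F statistic. CPM are counts per 1000000 of the library total, given with the SD. The test was tried on simulated data before use. Replicate pairs differed beyond sampling noise, chi-square divided by degrees of freedom being 2.3 to 18.6 in 24 pairs with the vehicle pairs highest, so no library was a copy.

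All 10 genes are named in the text. Of each pathway list, the counts and up to 4 genes with the smallest adjusted p were eligible, and of likeness the 3 nearest genes; the nearest genes of SESN2 are not reported here. The 10 genes and the lists were chosen with earlier results of these data known. Alternatives were DESeq2 1.42.0, its size factors, no low-count filter, only the groups compared, a replicate block and each library left out; 1 was added after seeing the data, the likeness without Soshiho-tang at 500 µg/mL.

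Replicate numbers paired 2 comparisons, 500 against 20 µg/mL of Yijin-tang, where libraries with the same number deviated together (r = 0.16 to 0.27), and of Okbyeongpung-san, where the number marks the batch (r = 0.11). A replicate block changed no call among the 10 genes in either, and moved the count over all genes to 155 from 88 for Okbyeongpung-san.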

Additional observations from a re-analysis of the deposited data

Results flagged for a closer look

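The change from 20 to 500 µg/mL differed between Soshiho-tang and Yijin-tang, by a test of the difference itself, for 4 of the 10 genes. Over all genes 4.69% were called, 2.27% higher and 2.42% lower. The log2 fold change in Soshiho-tang minus that in Yijin-tang was 0.75 for ASNS, 0.57 for TRIB3, 0.72 for CHAC1 and 0.56 for DDIT4. In ASNS it was 0.70 in Soshiho-tang and -0.06 in Yijin-tang, and in TRIB3 0.46 in Soshiho-tang and -0.11 in Yijin-tang. In CHAC1 it was 0.66 in Soshiho-tang and -0.07 in Yijin-tang, and in DDIT4 0.15 in Soshiho-tang and -0.41 in Yijin-tang. The CHAC1 call is the least certain, since it held in only 6 of 17 alternative analyses.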

How the results depend on the processing

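Over 1550 alternative values of the 140 fold changes, 1474 were counted as unchanged, 55 lost a call and 21 gained one. None changed direction past the threshold. Those counted as unchanged include values for which DESeq2 gave no adjusted p, and values that changed sign without passing in either analysis. Scaling by size factors moved the median of all genes by at most 0.01. With only the groups compared in the fit, the number of the 10 genes called fell to 1 with Soshiho-tang at 100 µg/mL against vehicle (5 in the shared fit), to 0 at 20 µg/mL (3), and to 1 with Yijin-tang at 500, 100 and 20 µg/mL (3, 3 and 4), and was 1 for 500 against 20 µg/mL of Okbyeongpung-san (0); the 7 calls with Soshiho-tang at 500 µg/mL against vehicle held. Over all genes, the same setting gave 559, 362, 1042, 575 and 498 calls in those 5 comparisons with vehicle, against 2911, 2677, 3396, 2924 and 2678, which uses fewer libraries, and 869 against 305 for 500 against 20 µg/mL of Yijin-tang, 938 against 88 for that of Okbyeongpung-san and 1352 against 745 for the interaction. Okbyeongpung-san against vehicle had 1 gene of the 10 at 100 µg/mL by DESeq2 and with no filter, and at 20 µg/mL 1 by DESeq2, 2 with no filter and 2 with the replicate block (ATF4 and ATF5), whose numbers did not pair the libraries; over all genes its counts ran over 55 to 1432 at 500, 3 to 430 at 100 and 0 to 1114 at 20 µg/mL, against 690, 17 and 43. The replicate block changed no other count among the 10 genes.

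Leaving out 1 library at a time, the number of the 10 genes called was 5 to 7 for Soshiho-tang at 500 µg/mL against vehicle, 3 to 5 at 100 and 2 to 3 at 20 µg/mL; 2 to 4, 3 to 3 and 3 to 4 for Yijin-tang at 500, 100 and 20 µg/mL; and 0 to 1, 0 to 1 and 0 to 3 for Okbyeongpung-san. It was 5 to 6 for 500 against 20 µg/mL of Soshiho-tang, 1 for Yijin-tang, 0 for Okbyeongpung-san, 5 to 7 between the formulas and 3 to 4 for the interaction. Without 1 library the count over all genes at 20 µg/mL against vehicle fell to 1733 (vehicle replicate 3) and 1529 (replicate 3) for Soshiho-tang, and to 1785 (vehicle replicate 3), 1718 (replicate 2) and 1707 (replicate 3) for Yijin-tang. For 500 against 20 µg/mL of Yijin-tang it lay between 147 and 222 without any 1 library. CHAC1, VLDLR and DDIT3 had the fewest reads, which limits their precision.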
